A study of Mus musculus with 6 samples.

Results

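The genes described here are 47 components of Wnt signalling, from ligand production to the cell surface: 19 Wnt ligands, 10 Frizzled receptors, the co-receptors Lrp5 and Lrp6, 4 R-spondins, 6 secreted proteins that bind Wnts (Sfrp1, Sfrp2, Sfrp4, Sfrp5, Frzb and Wif1), 4 Dickkopf genes, and Porcn and Wls, which Wnt-producing cells need for secretion. They were taken as a list of gene symbols by family and role, and the list was chosen with earlier results of these data known. All 47 were found among the 46078 genes of the count tables. Each library was made from total RNA of small-intestinal adenomas of 1 mouse, with 3 tumors pooled per mouse. Knockout mice (miR-34a/b/c-/-;ApcMin/+, n = 3) lacked the microRNAs miR-34a, miR-34b and miR-34c, and wild-type mice (miR-34a/b/c+/+;ApcMin/+, n = 3) carried them. All 6 mice were 18 weeks old, of mixed C57BL6/SV129 strain, and carried the ApcMin allele, so the comparison is between microRNA genotypes within Apc-mutant tumors, with no normal mucosa.

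Wnt ligands are lipid-modified by Porcn, carried to the surface by Wls, and bind Frizzled receptors together with Lrp5 or Lrp6. In the intestinal crypt this signal stabilises β-catenin and maintains stem cells, R-spondins amplify it by protecting Frizzled from removal, and Sfrp, Frzb, Wif1 and Dickkopf proteins limit it outside the cell. Apc lies downstream of the receptors and promotes β-catenin destruction, so tumors of ApcMin mice that have lost Apc carry an activated pathway.

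The microRNAs missing from the knockout mice recognise transcripts through bases 2 to 8, the seed. RefSeq (GRCm38.p6) places mmu-miR-34a-5p at chr4:150068473-150068494 on the plus strand and mmu-miR-34b-5p at chr9:51103610-51103632 on the minus strand, and the seed, in capitals, is the same in both.
mmu-miR-34a-5p: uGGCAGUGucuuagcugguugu
mmu-miR-34b-5p: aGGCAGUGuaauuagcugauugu
The DNA complement of that seed, CACTGCC, was searched on the sense strand of the longest annotated 3′ UTR of each gene (GENCODE M21). It occurred in 10 of the 47 members (21.3%), against 3260 of 20821 genes with a 3′ UTR (15.7%). The members also had longer 3′ UTRs, with a median length of 1813 bases, against 1090 bases over all genes. The 10 were Wnt1, Wnt4, Wnt5a, Wnt7a, Fzd3, Fzd6, Fzd8, Sfrp1, Sfrp5 and Porcn, and Wnt7a and Fzd3 each held 2 matches. The matches of 6 members whose expression values are given below are printed with their flanking bases (match in capitals).
Sfrp5: ttctgcgttCACTGCCAcacagcctt
Wnt5a: caggacgacCACTGCCtgcccacac
Wnt4: ggctagaacCACTGCCcaggccaaa
Fzd6: tgtggtcacCACTGCCcagcctttt
Sfrp1: gtgggaggcCACTGCCtactctacc
Porcn: tgtacctaaCACTGCCcttcaaaaa
These windows lie in GRCm38 at chr19:42198131-42198156 (Sfrp5, minus strand), chr14:28526663-28526687 (Wnt5a, plus), chr4:137299106-137299130 (Wnt4, plus), chr15:39036957-39036981 (Fzd6, plus), chr8:23447117-23447141 (Sfrp1, plus) and chrX:8199018-8199042 (Porcn, minus). Sfrp5 was the only member whose match was followed by A (CACTGCCA, an 8mer), which was the case in 1 of 47 members (2.13%) and in 5.47% of all genes. The Porcn gene runs on past its match to position 8193848, and whether the Porcn transcripts present in these tumors hold the match was not tested. A match is a string of letters in an annotated UTR and does not show that the microRNA acts there.

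The libraries held 26375035, 33153025 and 38354355 counts in knockout tumors, and 31340618, 33492834 and 37396224 in wild-type tumors. The precursor rows Mir34a, Mir34b and Mir34c were at 0 counts in all 6 libraries, wild-type included, so they do not check the genotype labels. Replicates were separate mice, and the p-values below measure the spread between mice. Across the genome, 17254 genes had enough counts for the edgeR test and 16 passed an adjusted p of 0.05 (7 higher and 9 lower in knockout tumors). Of the 47 members, 38 were tested, and the other 9 had at most 45 counts summed over the 6 libraries.

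No member passed the adjusted threshold in the knockout against wild-type comparison, where 0.0927% of all tested genes did. The lowest adjusted p among members was 0.581, for Wnt10b. At an unadjusted p under 0.05 there were 3 of 38 members (7.89%), Wnt10b, Wnt10a and Fzd4, all higher in knockout tumors, against 5.85% of all tested genes (3.27% higher and 2.58% lower in knockout tumors). DESeq2 and limma-voom each called 0 members, where 0.638% of all genes were called with DESeq2 and 0.122% with limma-voom. Each gave 4 of 38 members with an unadjusted p under 0.05, against 7.0% of all genes with DESeq2 and 5.99% with limma-voom. In 5 of 38 members (13.2%) the knockout mice did not overlap with the wild-type mice, against 11.2% of all tested genes. These were Wnt5a, Wnt10b, Fzd4, Sfrp5 and Frzb, and in each all 3 knockout mice lay above all 3 wild-type mice, which 5.86% of all genes did, with 5.34% the other way round. Counted in both directions these shares were near those of all tested genes, and counted as higher in knockout tumors alone they were above them. The count at an unadjusted p under 0.05 was 8 of 39 without knockout mouse 2 (17.9% of all genes), 1 of 38 without knockout mouse 3 (3.07%), and 5 of 39 without wild-type mouse 1 (6.62%). The count of members with no overlap was 23 of 39 without knockout mouse 2 (39.8% of all genes), 10 of 39 without wild-type mouse 1 (24.0%), and 10 of 39 without wild-type mouse 3 (21.2%).

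Most members had a positive log2 fold change, knockout over wild-type: 30 of 38 (78.9%), against 51.1% of all tested genes. The median over the members was 0.28 (range -0.95 to 2.11), against 0.01 over all genes. It was 1 or more in size for 3 members (7.89%), Wnt10b, Wnt10a and Wnt5a, against 4.55% of all genes. By role, the median log2 fold change was 0.35 for the 14 tested ligands, 0.24 for the 10 Frizzled receptors, 0.19 for the co-receptors, 0.83 for the 2 tested R-spondins, 0.50 for the 6 Wnt-binding inhibitors, 0.34 for the 2 tested Dickkopf genes and -0.02 for the secretion genes. The median over members depended on single mice. It was 0.13 without knockout mouse 1, 0.15 without knockout mouse 3 and 0.14 without wild-type mouse 2, and it was 0.49 without knockout mouse 2 and 0.50 without wild-type mouse 1.

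**Figure D1:**
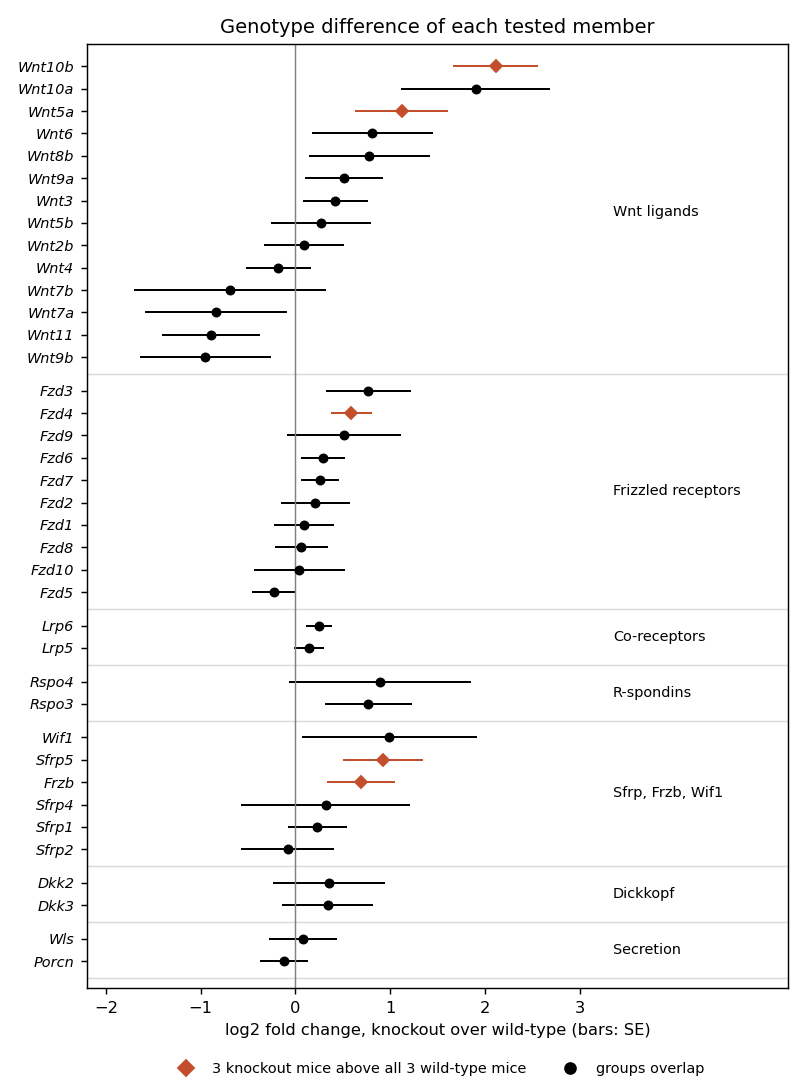
Log2 fold change of the 38 tested members, knockout over wild-type (x axis), with bars of 1 SE from edgeR, grouped by role down the page. Red diamonds are the 5 members in which all 3 knockout mice lay above all 3 wild-type mice, and 30 of the 38 points lie to the right of 0.

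On average over the mice, ligand transcripts in these adenomas came mainly from Wnt6 and Wnt5a. On the TPM scale, which divides counts by exon length, sets the total of each library equal and so allows genes to be compared, Wnt6 averaged 23.5 TPM and Wnt5a 14.7 TPM over the 6 mice. Next were Wnt11 (3.32 TPM), Wnt5b (3.19 TPM), Wnt10a (3.01 TPM) and Wnt4 (2.79 TPM), and the spread between mice was wider than the steps between these 4. Wnt6 made up 37.2 ± 18.4% of ligand TPM in knockout tumors and 37.6 ± 4.03% in wild-type tumors (SD, n = 3 each). The share of Wnt5a was 30.4 ± 10.3% in knockout tumors and 19.5 ± 8.01% in wild-type tumors. Wnt11 held 5.11 ± 5.29% in knockout tumors and 11.6 ± 7.75% in wild-type tumors. Single mice departed from the average order. Wild-type mouse 2 had Wnt6 at 35.0%, Wnt11 at 20.0%, Wnt4 at 10.8% and Wnt5a at 10.3%. Knockout mouse 2 had Wnt5a at 35.3%, Wnt6 at 19.0%, and Wnt11 and Wnt4 at 11.2% each. In knockout mouse 3, Wnt5a (37.3%) was slightly above Wnt6 (36.7%). Summed over all 19 ligands, the level was 103, 32.5 and 85.1 TPM in the knockout mice, against 48.4, 27.6 and 45.2 TPM in the wild-type mice. Knockout mice 1 and 3 lay above all wild-type mice and knockout mouse 2 lay among them.

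**Figure D2:**
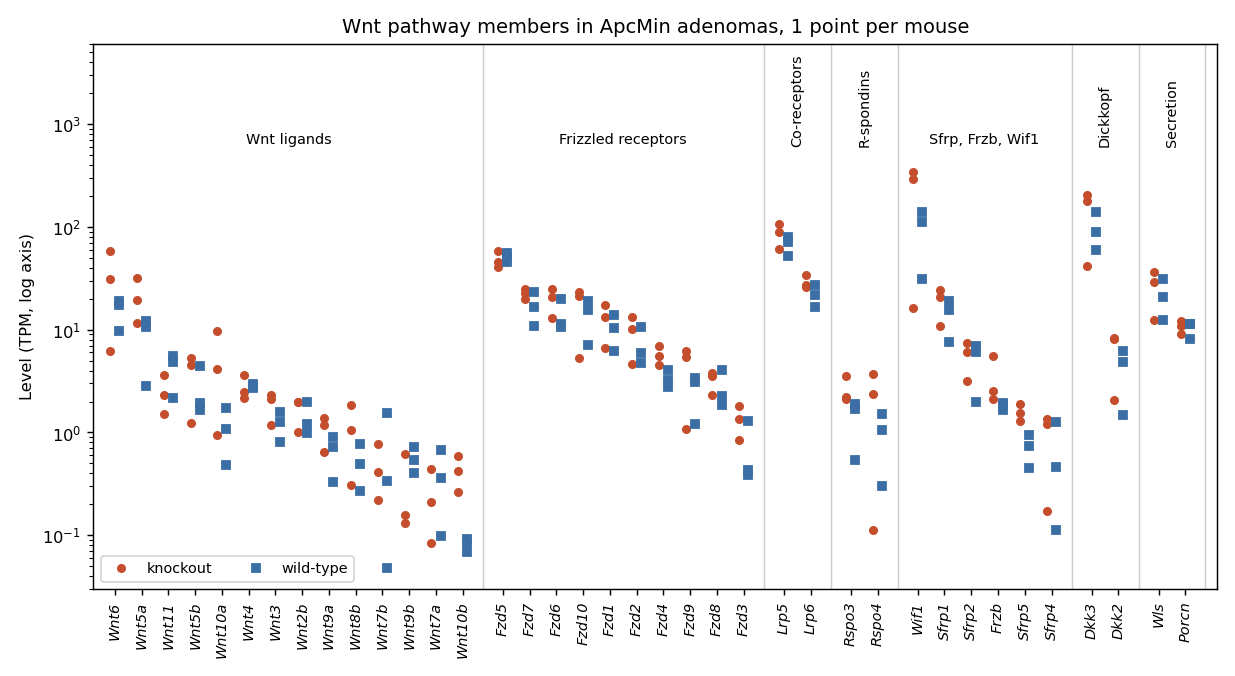
Level of each tested member in TPM (log axis), 1 point per mouse, with knockout mice as red circles to the left of wild-type mice as blue squares, ordered by level within each role. Wif1, Dkk3 and Lrp5 had the highest mean levels over the 6 mice, and the points of both genotypes overlap for most members.

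**Figure D3:**
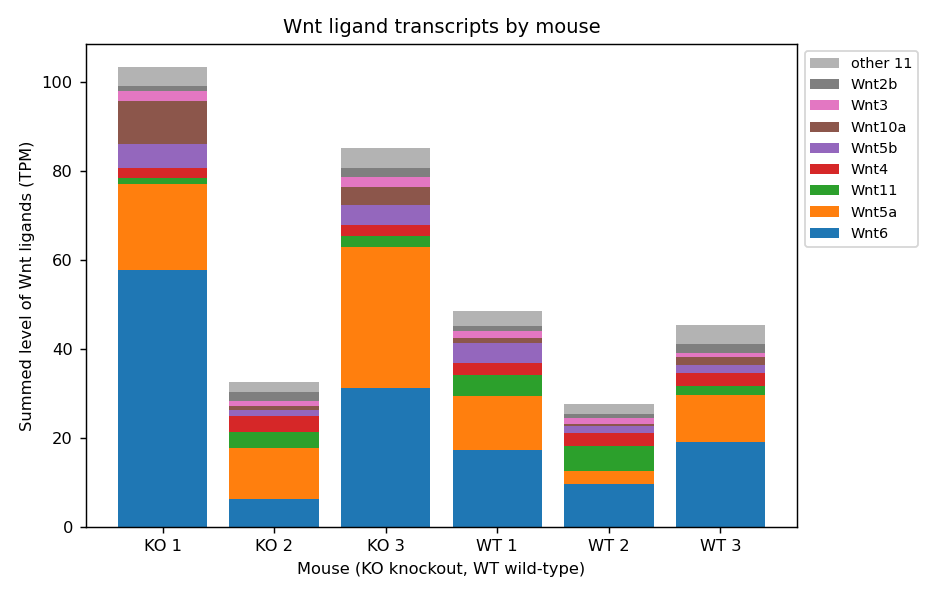
Summed TPM of the 19 Wnt ligands in each mouse, with the 3 knockout mice to the left of the 3 wild-type mice and 8 ligands in colour. The bars reach 103, 32.5 and 85.1 TPM in knockout mice and 48.4, 27.6 and 45.2 TPM in wild-type mice, with Wnt6 and Wnt5a the main layers of most bars.

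Wnt5a, a ligand best known for β-catenin-independent signalling and made in the gut mainly by mesenchymal cells, showed the clearest separation among the abundant ligands. In CPM, counts scaled to a common library total without regard to length, it was at 45.2, 33.2 and 70.6 in knockout tumors, against 30.6, 8.87 and 29.2 in wild-type tumors. All knockout mice lay above all wild-type mice, the closest pair being knockout mouse 2 and wild-type mouse 1. For Wnt5a the log2 fold change was 1.12 ± 0.49 (SE), with an adjusted p of 0.793 in edgeR, and 0.73 without wild-type mouse 2. On the per-length TPM scale the groups overlapped, at 19.3, 11.5 and 31.8 TPM in knockout tumors and 12.1, 2.85 and 10.5 TPM in wild-type tumors.

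Wnt10a and Wnt10b, ligands known for activating the β-catenin branch, gave the largest log2 fold changes. Wnt10b (chromosome 15, 98771753 to 98778150) was near the limit of detection, with 17, 10 and 17 counts in knockout tumors and 3, 3 and 4 counts in wild-type tumors. This corresponded to 0.599, 0.330 and 0.408 CPM in knockout tumors and 0.0932, 0.0944 and 0.112 CPM in wild-type tumors, with no overlap. EdgeR gave a log2 fold change of 2.11 ± 0.45 (unadjusted p = 0.00219, adjusted p = 0.581). Its value stayed between 1.84 and 2.28 when any 1 mouse was left out. Wnt10a was at 7.12, 0.858 and 2.90 CPM in knockout tumors, against 0.870, 0.472 and 1.54 CPM in wild-type tumors. Knockout mice 1 and 3 were above all wild-type mice, and knockout mouse 2 was level with wild-type mouse 1. Its log2 fold change of 1.90 ± 0.79 (edgeR, adjusted p = 0.793) was 0.96 without knockout mouse 1.

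Wnt6, which in the mouse intestine is known as an epithelial ligand of the crypt, lies next to Wnt10a. Wnt6 spans 74771892 to 74785322 on chromosome 1 (mm10) and Wnt10a spans 74791516 to 74804179 on the same strand, with 6193 bases between them. Wnt6 was at 37.9, 4.99 and 19.4 CPM in knockout tumors, against 12.1, 8.46 and 14.9 CPM in wild-type tumors. The knockout mice included both the highest and the lowest value. Its log2 fold change was 0.81 ± 0.64 (edgeR, adjusted p = 0.815) and was 0.04 without knockout mouse 1 and 1.27 without knockout mouse 2. The other pairs of neighbouring ligands were low. Wnt10b neighbours Wnt1 (11706 bases apart, 2 counts in all for Wnt1), and Wnt9a neighbours Wnt3a (16175 bases apart, 0 counts for Wnt3a). Wnt3 and Wnt9b, 24328 bases apart, were both low, with 310 and 132 counts in all, and had log2 fold changes of 0.42 and -0.95.

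A smaller set of ligands had negative log2 fold changes: Wnt4, Wnt7a, Wnt7b, Wnt9b and Wnt11. Wnt11, which acts mostly outside the β-catenin branch, was at 1.87, 5.55 and 2.69 CPM in knockout tumors, against 6.43, 9.12 and 3.19 CPM in wild-type tumors. Knockout mouse 2 lay within the wild-type range and knockout mice 1 and 3 below it. The log2 fold change of -0.89 ± 0.52 (edgeR, adjusted p = 0.804) was -1.45 without knockout mouse 2 and -0.51 without wild-type mouse 2. Wnt4 was at 2.71, 5.61 and 2.98 CPM in knockout tumors and 3.67, 5.0 and 4.14 CPM in wild-type tumors. Wnt9b was at 0.211, 1.02 and 0.168 CPM in knockout tumors and 1.06, 0.975 and 0.644 CPM in wild-type tumors. In all 3 genes knockout mouse 2 was the highest knockout mouse, the reverse of Wnt6, Wnt5a and Wnt10a, in which it was the lowest. Wnt9b had a log2 fold change of -0.95, Wnt7a of -0.84, Wnt7b of -0.69 and Wnt4 of -0.18. Among the remaining tested ligands the values were 0.78 for Wnt8b, 0.51 for Wnt9a, 0.42 for Wnt3, 0.27 for Wnt5b and 0.09 for Wnt2b, and their groups overlapped.

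The other 5 ligands were too low to test. Wnt3a and Wnt8a had 0 counts in every library, which allows up to 3 counts per library, or 0.0782 to 0.114 CPM of the deposited totals. Wnt1 had 2 counts in all and Wnt16 had 15. Wnt2, a ligand known from stroma and endothelium in other organs, had 3, 1 and 1 counts in knockout tumors and 12, 9 and 7 counts in wild-type tumors. All knockout mice lay below all wild-type mice. With no filter on low counts, edgeR gave Wnt2 an unadjusted p of 0.0103 and an adjusted p of 0.793.

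R-spondins were scarce beside the Frizzleds, whose summed level was 147, 117 and 163 TPM in knockout tumors and 150, 91.7 and 125 TPM in wild-type tumors. The summed R-spondin level was 7.99, 2.41 and 5.40 TPM in knockout tumors, against 3.30, 0.836 and 3.37 TPM in wild-type tumors, and most of it was Rspo3 and Rspo4. Rspo3, the main R-spondin of the intestinal stroma, was at 3.31, 2.41 and 1.94 CPM in knockout tumors, against 1.71, 0.661 and 2.1 CPM in wild-type tumors. Only knockout mouse 3 fell within the wild-type range. Rspo3 had a log2 fold change of 0.77 ± 0.46 (edgeR, adjusted p = 0.805), which was 0.42 without wild-type mouse 2. Rspo4 was at 2.64, 0.0991 and 1.58 CPM in knockout tumors and 1.15, 0.283 and 0.896 CPM in wild-type tumors, so that knockout mouse 2 was the lowest of all mice. Its log2 fold change of 0.89 ± 0.96 (edgeR, adjusted p = 0.847) was 0.13 without knockout mouse 1, 1.43 without knockout mouse 2 and 0.49 without wild-type mouse 2. Rspo1 was not tested, with 11, 4 and 19 counts in knockout tumors and 1, 0 and 10 counts in wild-type tumors, and Rspo2 had 3 counts in all.

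Among the receptors, Fzd5 was the most abundant Frizzled at 49.4 TPM, followed by Fzd7 at 19.6 TPM and Fzd6 at 16.8 TPM. Fzd5, a receptor of the crypt epithelium that Paneth cell maturation requires in mice, was at 83.7, 149 and 88.8 CPM in knockout tumors, against 113, 126 and 138 CPM in wild-type tumors. Knockout mice 1 and 3 lay below all wild-type mice and knockout mouse 2 above them. It was the only Frizzled with a negative log2 fold change, -0.23 ± 0.23 (edgeR, adjusted p = 0.837). This value was -0.09 without knockout mouse 1, -0.54 without knockout mouse 2 and -0.12 without knockout mouse 3. Its share of Frizzled TPM was 34.9 ± 12.8% in knockout tumors and 42.9 ± 8.13% in wild-type tumors (SD, n = 3 each).

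Fzd4, a receptor for Wnts and for norrin in blood vessel endothelium, separated the genotypes. It was at 9.06, 13.7 and 13.3 CPM in knockout tumors, against 8.73, 7.46 and 7.81 CPM in wild-type tumors. All knockout mice lay above all wild-type mice, though knockout mouse 1 was close to wild-type mouse 1. EdgeR gave a log2 fold change of 0.59 ± 0.22 (unadjusted p = 0.0288, adjusted p = 0.793), and it ranged from 0.49 to 0.75 when any 1 mouse was left out. Fzd7, a receptor of Lgr5-positive stem cells, was at 30.9, 33.1 and 31.7 CPM in knockout tumors and 33.7, 19.7 and 26.6 CPM in wild-type tumors. The knockout mice lay close together, inside the wild-type range (log2 fold change 0.26 ± 0.20, against 0.45 without wild-type mouse 1 and 0.08 without wild-type mouse 2). Fzd6 was at 30.2, 22.9 and 33.8 CPM in knockout tumors and 31.2, 20.6 and 19.4 CPM in wild-type tumors, with a log2 fold change of 0.29 ± 0.23, which was 0.15 without knockout mouse 3, 0.52 without wild-type mouse 1 and 0.16 without wild-type mouse 3. Fzd3, known from planar cell polarity and axon guidance, was at 5.22, 4.0 and 6.50 CPM in knockout tumors and 5.28, 2.20 and 1.76 CPM in wild-type tumors. Wild-type mouse 1 lay among the knockout mice, and the log2 fold change was 0.77 ± 0.45 (edgeR, adjusted p = 0.804), with 1.39 without wild-type mouse 1 and 0.49 without wild-type mouse 3. Of the other Frizzleds, Fzd9 had a log2 fold change of 0.51, Fzd2 of 0.21, Fzd1 of 0.09, Fzd8 of 0.06 and Fzd10 of 0.04.

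The co-receptors were abundant and varied little between mice. Lrp5 averaged 76.6 TPM and Lrp6 25.5 TPM. Lrp5 was at 260, 219 and 294 CPM in knockout tumors, against 252, 204 and 245 CPM in wild-type tumors, and the groups overlapped (log2 fold change 0.14 ± 0.16, edgeR, adjusted p = 0.854). Lrp6 was at 112, 132 and 132 CPM in knockout tumors and 120, 89.9 and 107 CPM in wild-type tumors, where knockout mouse 1 lay below wild-type mouse 1 (log2 fold change 0.25 ± 0.14, adjusted p = 0.804). When any 1 mouse was left out, the log2 fold change ranged from 0.03 to 0.25 for Lrp5 and from 0.14 to 0.34 for Lrp6. Lrp5 formed 74.1 ± 3.58% of their summed TPM in knockout tumors and 75.7 ± 0.87% in wild-type tumors (SD, n = 3 each). The seed match CACTGCC was found in the 3′ UTR of neither gene. Lrp5 held 2 sites of the 7mer-A1 form (CACTGCC less its first base, followed by A), which is counted separately.

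Wif1, a secreted protein that binds Wnts and is itself raised by Wnt signalling in tumors, had the highest mean level of the members over the 6 mice, 156 TPM, which knockout mice 1 and 3 carried (345 and 292 TPM). Among wild-type mice Dkk3 averaged 95.7 TPM and Wif1 93.9 TPM, and in knockout mouse 2 Wif1, at 16.1 TPM, lay below Dkk3 at 42.0 TPM. In CPM, Wif1 was at 251, 14.4 and 201 in knockout tumors, against 110, 30.0 and 95.6 CPM in wild-type tumors. Knockout mouse 2 was the lowest of the 6 mice and knockout mice 1 and 3 the highest. The highest knockout mouse exceeded the lowest 17.4-fold, and the highest wild-type mouse exceeded the lowest 3.65-fold. The log2 fold change was 0.99 ± 0.92 (edgeR, adjusted p = 0.830), and it was 0.44 without knockout mouse 1, 1.53 without knockout mouse 2 and 0.60 without wild-type mouse 2.

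The secreted Frizzled-related proteins bind Wnts through a Frizzled-like domain. Sfrp5 and Frzb separated the genotypes. Sfrp5 was at 0.740, 1.09 and 1.03 CPM in knockout tumors, against 0.280, 0.724 and 0.504 CPM in wild-type tumors, with 21, 33 and 43 counts in knockout tumors and 9, 23 and 18 in wild-type tumors. The lowest knockout mouse was just above the highest wild-type mouse. The log2 fold change was 0.92 ± 0.42 (edgeR, unadjusted p = 0.0626, adjusted p = 0.793). Frzb was at 2.47, 2.51 and 5.09 CPM in knockout tumors and 1.89, 2.14 and 2.24 CPM in wild-type tumors. The mean difference came largely from knockout mouse 3, without which the log2 fold change of 0.69 ± 0.36 (adjusted p = 0.793) was 0.24. Sfrp1, the most abundant of the family, was at 27.2, 17.6 and 30.4 CPM in knockout tumors and 26.9, 13.1 and 24.2 CPM in wild-type tumors, and Sfrp2 was at 3.88, 2.54 and 4.49 CPM in knockout tumors and 4.78, 5.25 and 1.51 CPM in wild-type tumors. Their groups overlapped, with log2 fold changes of 0.23 ± 0.31 and -0.08 ± 0.49, and the sign of Sfrp2 was positive with limma-voom (0.11) and 0.00 when scaled by library size alone. Sfrp4 had a log2 fold change of 0.32 ± 0.89.

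Dickkopf transcripts were almost entirely Dkk3, a divergent family member whose role in Wnt signalling is less settled than that of Dkk1. It made up 95.4 ± 0.521% of Dickkopf TPM in knockout tumors and 95.6 ± 2.07% in wild-type tumors (SD, n = 3 each). Dkk3 was at 179, 52.1 and 194 CPM in knockout tumors, against 151, 79.4 and 105 CPM in wild-type tumors, with a log2 fold change of 0.34 ± 0.48 (edgeR, adjusted p = 0.882). This value ranged from 0.03 without knockout mouse 3 to 0.73 without knockout mouse 2, and leaving out any mouse but wild-type mouse 3 moved it by more than 1.5 times. Dkk2, which binds Lrp5 and Lrp6, was at 9.20, 2.84 and 8.54 CPM in knockout tumors and 5.81, 2.17 and 8.14 CPM in wild-type tumors (0.35 ± 0.59, adjusted p = 0.901). In both genes knockout mice 1 and 3 were the highest of the 6, and knockout mouse 2 and wild-type mouse 2 the lowest. Dkk1, the classical Lrp5 and Lrp6 antagonist, had 15 counts in all, and Dkk4 had 17.

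The secretion genes did not separate the genotypes. Wls was at 76.1, 39.9 and 90.4 CPM in knockout tumors, against 88.2, 43.0 and 64.7 CPM in wild-type tumors, with a log2 fold change of 0.08 ± 0.36 (edgeR, adjusted p = 0.969). Porcn was at 11, 12.0 and 7.66 CPM in knockout tumors and 11, 13.6 and 8.59 CPM in wild-type tumors (-0.12 ± 0.25, adjusted p = 0.924). The order of mice differed between the genes: the lowest mice for Wls, number 2 of each genotype, were the highest for Porcn.

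Mice of 1 genotype differed among themselves, and these differences ran across roles. The lowest value of the 6 mice fell in knockout mouse 2 for 11 of 38 members (28.9%) and in wild-type mouse 2 for 13 (34.2%). For all tested genes these shares were 20.2% in knockout mouse 2 and 20.7% in wild-type mouse 2. The highest value fell in knockout mouse 3 for 13 members (34.2%) and in knockout mouse 1 for 11 (28.9%), and for all genes these shares were 19.4% in knockout mouse 3 and 20.2% in knockout mouse 1. On the first principal component of all genes, which held 40.8% of the variance, knockout mice 1 and 3 lay at -53.0 and -49.2 and knockout mouse 2 at 27.1, while the wild-type mice lay at -0.284, 58.5 and 16.9. On the second component, with 20.7% of the variance, the knockout mice lay at -9.74, 50.5 and 4.58 and the wild-type mice at -28.8, -33.4 and 16.8. Mitochondrial genes took 2.89, 4.18 and 2.31% of counts in knockout tumors and 2.98, 4.0 and 3.08% in wild-type tumors, highest in number 2 of each genotype. An annotated ribosomal RNA gene took 0.87, 0.856 and 0.62% in knockout tumors and 1.02, 1.70 and 0.922% in wild-type tumors, with no overlap and lower in knockout tumors. The part of these RNA measures in the members' differences was not tested.

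**Figure D4:**
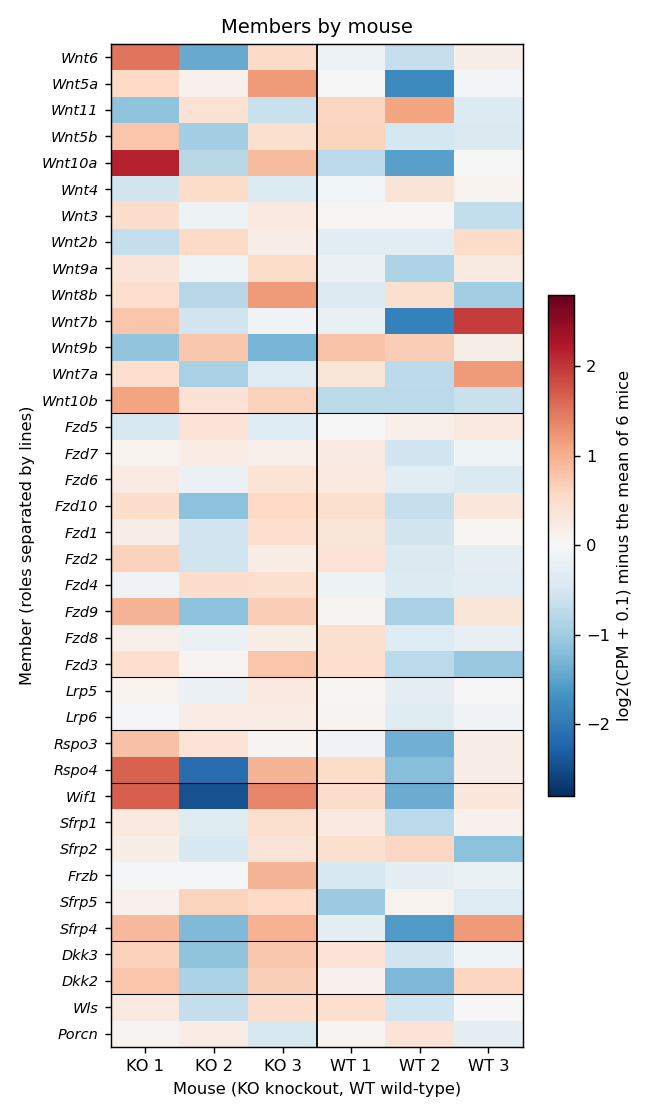
Each tested member (rows, roles separated by lines) in each mouse (columns, 3 knockout mice left of 3 wild-type mice), as log2(CPM + 0.1) minus the mean of the 6 mice. Knockout mouse 2 and wild-type mouse 2 are blue (lower) for Wif1, Rspo4, Dkk2 and Wnt10a, while Wnt11, Wnt4 and Wnt9b show the opposite colours.

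Among other regulators of the pathway, no gene passed the adjusted threshold. Of 35 such genes in the tables, 29 were tested. Their log2 fold changes were positive for 22 (51.1% of all tested genes were positive) and negative for 7, with a median of 0.32, and the lowest adjusted p was 0.793. At an unadjusted p under 0.05 there were 3 of 29, against 5.85% of all genes, and the same 3 had no overlap between groups, against 11.2% of all genes. Ror1, a receptor for Wnt5a, was at 5.60, 1.72 and 4.97 CPM in knockout tumors, against 1.55, 1.01 and 1.60 CPM in wild-type tumors, with a log2 fold change of 1.56 ± 0.48. Reck, a membrane protein that helps cells respond to Wnt7 ligands, was at 3.14, 2.41 and 3.98 CPM in knockout tumors and 1.86, 1.26 and 1.51 CPM in wild-type tumors (1.04 ± 0.31). Prickle2, of the planar cell polarity pathway, was at 6.49, 4.29 and 6.96 CPM in knockout tumors and 3.39, 2.42 and 4.03 CPM in wild-type tumors (0.85 ± 0.30). Notum, a secreted enzyme that removes the lipid from Wnts, was at 370, 56.3 and 287 CPM in knockout tumors and 256, 123 and 145 CPM in wild-type tumors, overlapping as Wif1 did (0.44 ± 0.63). The groups also overlapped for Igfbp4, a secreted binding protein (0.55 ± 0.36), for the R-spondin receptor Lgr4 (0.08 ± 0.23) and for Prickle1 (0.56 ± 0.31), given as log2 fold changes.

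Genes known to respond to Wnt signalling followed the mice as well. Of 22 response genes outside the members, 21 were tested, with 19 positive and 2 negative log2 fold changes, a median of 0.29 and 0 called. Over all tested genes 51.1% were positive, 5.85% had an unadjusted p under 0.05 and 0.0927% were called. Of the 22 genes, 5 are also in the list of other regulators. Their summed level was 3350, 1430 and 3570 CPM in knockout tumors, against 2840, 1950 and 2140 CPM in wild-type tumors. Knockout mouse 2 was the lowest and knockout mice 1 and 3 the highest, the order also seen for Wif1. At an unadjusted p under 0.05 there was 1, the cell cycle gene Ccnd1, at 156, 123 and 138 CPM in knockout tumors and 122, 107 and 104 CPM in wild-type tumors, with a log2 fold change of 0.32 ± 0.13 (edgeR, adjusted p = 0.793). The groups overlapped for Nkd1, an intracellular inhibitor induced by the pathway (log2 fold change 0.24 ± 0.57), and for Sox9, a transcription factor of the crypt (0.14 ± 0.43). They also overlapped for Prox1 (0.61 ± 0.47), Tnfrsf19 (0.70 ± 0.56) and Apcdd1 (0.76 ± 0.44).

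The members are made by different cells of a tumor, and in bulk RNA fewer cells of a type and less RNA per cell cannot be told apart. Fibroblast markers summed to 1370, 676 and 2520 CPM in knockout tumors and 969, 404 and 1260 CPM in wild-type tumors, with 7 of 8 log2 fold changes positive. Endothelial markers summed to 270, 295 and 380 CPM in knockout tumors and 223, 171 and 199 CPM in wild-type tumors, with 5 of 6 positive. Smooth muscle markers summed to 638, 554 and 532 CPM in knockout tumors and 479, 206 and 370 CPM in wild-type tumors, with 7 of 7 positive. The endothelial and smooth muscle sums did not overlap between genotypes, with knockout tumors higher. Among single markers, 1 of 8 fibroblast, 3 of 6 endothelial, 5 of 7 smooth muscle and 2 of 8 subepithelial telocyte markers were higher with no overlap. Over all tested genes 51.1% were positive, and 11.2% had no overlap in either direction. Subepithelial telocyte markers summed to 305, 197 and 364 CPM in knockout tumors and 202, 149 and 250 CPM in wild-type tumors (6 of 8 positive), and markers of trophocytes, the stroma at the crypt base, to 555, 327 and 438 CPM in knockout tumors and 357, 280 and 422 CPM in wild-type tumors (4 of 6 positive). Cd81 held much of the trophocyte sum, at 288, 209 and 244 CPM in knockout tumors and 271, 232 and 262 CPM in wild-type tumors. Within that list Grem1 (log2 fold change 1.29) and Ackr4 (0.87) were higher in knockout tumors with no overlap, while Cd81 (-0.05) and Pi16 (-0.17) were negative. The sum of Paneth cell markers did not overlap between genotypes, at 1480, 1030 and 2060 CPM in knockout tumors and 715, 718 and 851 CPM in wild-type tumors, with 9 of 9 positive, though among single markers only Lyz1, Itln1 and Ang4 (3 of 9) did not overlap. Epithelial markers, which check the tissue, were at 10700, 12800 and 10200 CPM in knockout tumors and 11600, 10600 and 14500 CPM in wild-type tumors, with 7 of 8 log2 fold changes negative and 2, Epcam and Cdx2, lower in knockout tumors with no overlap. Lymphocyte markers also had negative log2 fold changes. B and plasma cell markers summed to 252, 744 and 687 CPM in knockout tumors and 910, 1370 and 1160 CPM in wild-type tumors, with 0 of 4 tested markers positive and no overlap. T cell markers summed to 10.7, 27.3 and 11.6 CPM in knockout tumors and 21.1, 26.2 and 26.6 CPM in wild-type tumors, with 0 of 5 positive. Lower in knockout tumors with no overlap were 3 of 4 tested B and plasma cell markers and 1 of 5 T cell markers. Of the remaining lists, 6 of 6 lymphatic endothelial, 5 of 6 macrophage and 3 of 6 glial and neuronal markers had positive log2 fold changes, and their sums overlapped. Prox1, also in the list of response genes, held most of the lymphatic sum. It held 410, 141 and 499 of 445, 181 and 559 CPM in knockout tumors. In wild-type tumors it held 321, 184 and 185 of 346, 208 and 221 CPM. Among single markers of these lists, macrophage Adgre1 was higher and glial S100b lower in knockout tumors with no overlap. No marker of the 12 lists was at 0 in all libraries, and no marker passed the adjusted threshold. The part of cell composition in the members' differences was not tested.

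The levels of 3 members were also set beside markers, as a description, with members and markers chosen after their values were seen. Pdgfra, a receptor of fibroblasts and telocytes, was at 84.3, 70.0 and 163 CPM in knockout tumors, against 63.0, 26.1 and 60.7 CPM in wild-type tumors. It had the highest log2 fold change of the fibroblast list (1.08), where Dpt had -0.02, so a ratio to Pdgfra removes more of a difference than a ratio to other markers of the list would. Wnt5a amounted to 53.7, 47.4 and 43.3% of Pdgfra CPM in knockout tumors and 48.6, 34.0 and 48.1% in wild-type tumors, which overlapped (log2 difference 0.16, two-sided exact permutation p = 0.7). Frzb amounted to 2.93, 3.58 and 3.12% of Pdgfra in knockout tumors and 3.01, 8.20 and 3.69% in wild-type tumors, where wild-type mouse 2 stood apart (log2 difference -0.49, exact permutation p = 0.4). Fzd4 amounted to 3.36, 4.65 and 3.51% of the summed endothelial markers in knockout tumors and 3.91, 4.37 and 3.92% in wild-type tumors (log2 difference -0.10, exact permutation p = 0.6). With 3 mice against 3, the smallest p this test can give is 0.1, so it could not have passed 0.05.

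**Figure D5:**
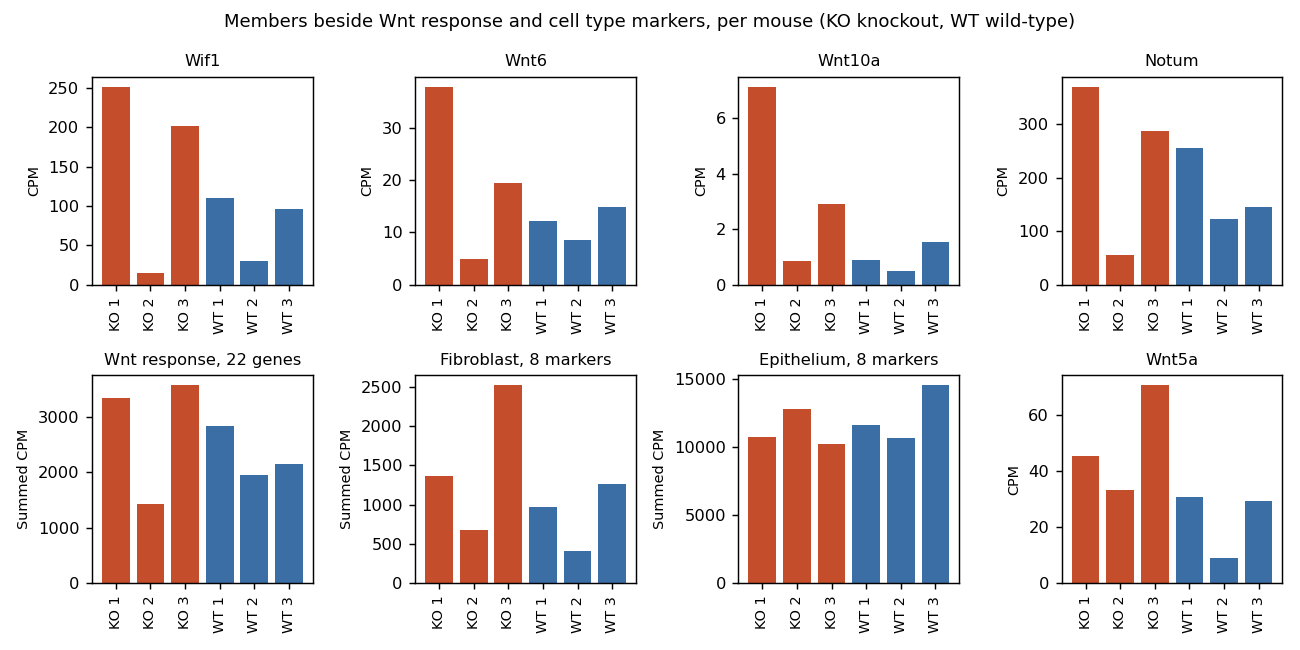
CPM of 5 genes and summed CPM of 3 gene lists in each mouse (red, 3 knockout mice; blue, 3 wild-type mice). Wif1, Wnt6, Notum and the Wnt response list are lowest in knockout mouse 2 and highest in knockout mouse 1 or 3, and Wnt5a and the fibroblast markers are lowest in wild-type mouse 2 and highest in knockout mouse 3.

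Log2 fold changes of members with and without the microRNA seed match are given as a description, with no test. Of the 10 members with a match, 9 were tested, 6 of them had a positive log2 fold change, and their median was 0.23. Of the 29 tested members without a match, 24 were positive and the median was 0.32. Over all genes the medians were 0.05 for the 2703 tested genes with a match and 0.01 for the 12020 without. Among members with a match, Wnt5a (1.12), Sfrp5 (0.92) and Fzd3 (0.77) had the highest log2 fold changes, and Wnt7a (-0.84), Wnt4 (-0.18) and Porcn (-0.12) were negative. The groups did not overlap in 5 of 38 tested members (13.2%), against 11.2% of all tested genes. Of these, Sfrp5 (with the 8mer) and Wnt5a held a match, and Wnt10b, Fzd4 and Frzb held none. In the deposited gene model, Fzd3 ends at position 65201026 of chromosome 14 on the minus strand, short of both its matches, so counts over that part of its 3′ UTR are not in its value. The deposited model of Fzd8, on chromosome 18, also ends at 9216201, short of the annotated gene end at 9218136. Whether the microRNAs act on these members was not tested.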

How the data were processed

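The files used hold raw counts per gene for each of 6 libraries, as deposited by the authors, with 46078 Ensembl gene identifiers each. The submitters' processing notes name TopHat2 2.1.0, HTSeq 0.6.1 and the mm10 build. The sources used here do not give the strand setting, the annotation release or the treatment of reads with several matches, so reads of a member and of an antisense neighbour cannot be told apart. Exons on the opposite strand overlapped 7 members (Fzd5, Fzd6, Rspo3, Sfrp2, Wnt5a, Wnt7b and Wnt11). Symbols (45143 of 46078 identifiers), exon lengths for TPM and 3′ UTRs came from GENCODE M21, whose gene coordinates equal the deposited ones for 35 of 47 members.

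Counts were filtered with filterByExpr, scaled by TMM (factors 0.914 to 1.09) and tested with the quasi-likelihood test of edgeR 4.0.16 on all 17254 genes, with Benjamini-Hochberg adjustment. CPM use the TMM-scaled library size. The scripts were tested on simulated data with the same group sizes. Of genes with a simulated log2 fold change of 1 in size, 23.1% were called, against 72.1% at 2 and 95.3% at 3. Most changes of 1 or less in size would thus be missed by the adjusted threshold. DESeq2 1.42.0, limma-voom (limma 3.58.1), other scalings and filters, a replicate block and leaving out each library were alternatives. Values in every library are given for up to 4 members per role with the smallest unadjusted p and up to 3 with the highest TPM. The library values of Wnt4, Wnt9b, Wnt2 and Rspo1 were added after their values were seen. The members and lists were chosen with earlier results of these data known.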

Additional observations from a re-analysis of the deposited data

How the results depend on the processing

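Log2 fold changes of the members with the smallest unadjusted p or highest TPM of their role were recomputed under other scalings, filters, tests and left-out mice. Of these 297 values, 284 kept their sign and 13 did not. Wnt4, Wnt9b, Wnt2 and Rspo1 were not among these members. No member was called under any of those settings (0 to 0 when single mice were left out). Under library size alone, which moved the median of all genes to 0.08, Sfrp2 was at 0.00. It was at 0.11 with limma-voom and at 0.04 with the replicate block. When single mice were left out, signs turned in part of the range for Sfrp2 (-0.46 to 0.21), Wls (-0.18 to 0.35), Porcn (-0.27 to 0.05), Sfrp1 (-0.03 to 0.43) and Dkk2 (-0.02 to 0.78). The ratios to cell type markers, chosen after seeing the data and given as a description, were -0.49 for Frzb and 0.16 for Wnt5a against Pdgfra, the marker with the highest fold change of its list, and -0.10 for Fzd4 against endothelial markers. The count of members with no overlap was 3 of 33 when at least 1 CPM in 3 libraries was required, since fewer members were then tested, and 5 to 23 when single mice were left out. The count at an unadjusted p under 0.05 was 1 to 8 when single mice were left out. The median over members was then 0.13 to 0.50. Members with a seed match numbered 1 when limited to 8mers and 13 (27.7%, against 21.5% of all genes) with 7mer-A1 sites included.

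Same-numbered knockout and wild-type mice correlated in their deviations at 0.218, 0.273 and 0.081, and mice of different numbers at -0.297 to 0.179. Only knockout mouse 3 correlated better with a mouse of another number, wild-type mouse 1 (0.179). Whether the numbers mark pairs is not known, so the main test did not use them. With the replicate block, 6 members had an unadjusted p under 0.05 (9.46% of all genes) and 0 were called. These were Wnt5a (edgeR, unadjusted p = 0.00475), Wnt10b (0.00676), Wnt10a (0.0227), Sfrp5 (0.0395), Wnt11 (0.0424) and Fzd4 (0.0484). Wnt11 was lower in knockout tumors and the others were higher. Wnt10b rested on 54 counts and the 9 untested members on at most 45 each, which limits their precision. Limits at 0 counts cover counting error only.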
